A study of Mus musculus with 6 samples.

Results

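The adipogenic transcription factors are the DNA-binding proteins that turn a fibroblast-like progenitor into a fat cell and keep its lipid genes on. The members were 10 genes chosen by name, *Pparg*, *Ppard*, *Cebpa*, *Cebpb*, *Cebpd*, *Ebf1*, *Ebf2*, *Zfp423*, *Rxra* and *Klf5*, of 54532 genes in the count table, and all 10 had enough counts to be tested. The tissue was epididymal white fat (eWAT), the pad that lies along the epididymis, collected on day 21 from male C57BL/6 mice, which had been 6 to 10 weeks old when obtained, for sequencing of total RNA. Of the 6 mice, 3 were cachectic after a subcutaneous inoculation of LLC (Lewis lung carcinoma) cells, a line from a mouse lung tumor, and 3 were controls. Cachexia had been defined as a loss of over 20% of body weight. Whether the control mice were injected is not given in the sources used here, and the RNA came from unsorted tissue, in which fat cells, progenitors, vessels and blood cells are sequenced together.

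In the textbook order of events, C/EBPβ and C/EBPδ are switched on early and induce PPARγ and C/EBPα. These sustain each other and drive the genes of the mature adipocyte, PPARγ as a heterodimer with RXRα. ZFP423, EBF1 and EBF2 mark and commit the progenitor, KLF5 acts early alongside C/EBPβ and C/EBPδ, and PPARδ is a widely expressed relative of PPARγ that is best known for fatty acid oxidation genes.

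*Cebpd* was the only one of the 10 factors that passed the test, and it was higher in cachectic mice. *Cebpb* was higher, and *Cebpa* and *Zfp423* were lower, in every cachectic mouse than in every control mouse, without passing it. Groups that did not overlap were also found in 40.5% of all tested genes. *Pparg*, *Rxra*, *Ppard*, *Ebf1*, *Ebf2* and *Klf5* did not pass, and their groups overlapped. The sequences just upstream of *Cebpa*, *Cebpb* and the internal start of *Pparg* are shown because these genes form the C/EBP to PPARγ loop. RefSeq's table (GRCm38.p6) held 12 starts for 7 of the 10 factors, and *Cebpd*, *Ebf2* and *Klf5* were not matched. Each line gives the 250 bases before the start, 5′ to 3′ on the + strand, at chr7:35119043-35119292 for *Cebpa*, chr2:167688665-167688914 for *Cebpb* and chr6:115421816-115422065 for *Pparg*. Capitals mark the TATA letters TATAAA in *Cebpa*, the core of a cAMP response element (CRE), TGACG, in *Cebpb*, and the C/EBP letters TTGCNNAA in *Pparg*, each on either strand.
Cebpa: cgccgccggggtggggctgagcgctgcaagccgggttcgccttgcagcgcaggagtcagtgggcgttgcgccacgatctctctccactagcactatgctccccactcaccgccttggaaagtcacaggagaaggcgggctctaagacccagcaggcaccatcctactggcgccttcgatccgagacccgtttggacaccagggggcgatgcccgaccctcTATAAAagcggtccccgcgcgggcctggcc
Cebpb: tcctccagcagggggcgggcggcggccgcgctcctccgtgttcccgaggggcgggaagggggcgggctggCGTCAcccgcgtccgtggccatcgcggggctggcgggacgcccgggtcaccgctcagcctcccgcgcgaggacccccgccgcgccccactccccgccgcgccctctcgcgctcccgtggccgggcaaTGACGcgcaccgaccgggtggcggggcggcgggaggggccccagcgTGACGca
Pparg internal start: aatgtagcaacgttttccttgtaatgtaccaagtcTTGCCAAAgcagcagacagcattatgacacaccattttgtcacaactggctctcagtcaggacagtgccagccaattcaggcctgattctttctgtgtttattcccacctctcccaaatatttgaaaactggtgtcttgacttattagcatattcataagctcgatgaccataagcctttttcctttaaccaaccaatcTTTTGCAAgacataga

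The *Cebpa* sequence held 1 TATA match, 30 bases before the start. The *Cebpb* sequence held 3 CRE core matches and 5 matches to the GC box GGGCGG, and 81.6% of its bases were G or C. The *Pparg* sequence held 2 C/EBP matches, the nearer beginning 16 bases before the start, and 40.8% G or C. The sequences before the *Pparg* starts at 115361144 and 115362349, not printed, held 0 C/EBP matches. The sequence before the *Zfp423* start at 87959595 held 1. Over all 32851 upstream sequences of the same length, 12.4% held the TATA letters, 17.8% the CRE core, 32.7% the GC box and 9.56% the C/EBP letters. The STAT letters TTCNNNGAA, held by 7.02% of all sequences, were in none of the 12 sequences of the factors. A match is a description of these letters only. Counts were summed per gene, so the starts of *Pparg* could not be told apart in the expression values.

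Total counts per mouse lay between 14928766 and 18855546. Values are CPM, counts relative to the library total scaled by edgeR's TMM factors, and edgeR's quasi-likelihood test, with Benjamini-Hochberg adjustment, was run on 16003 genes. Of the tested genes, 9.0% passed an adjusted p of 0.05 as higher in cachectic mice and 8.63% as lower, and 40.5% had groups that did not overlap. Among the 10 factors, 1 was called higher, 0 were called lower, and 4 had groups that did not overlap, which is near the share of all genes. At an unadjusted p under 0.05, 2 factors were higher (*Cebpd* and *Cebpb*) and 0 lower, beside 17.4% and 17.0% of all tested genes. DESeq2 called the same counts, beside 12.3% of all genes higher and 12.1% lower, and limma-voom called 1 higher and 0 lower, beside 8.59% and 8.69%. The median log2 fold change of the factors was -0.19, beside -0.0031 for all tested genes, and 8 of the 10 were below 0. Control replicate 1 stood apart from the other mice on the second principal component (47.2, against -28.8 to 3.33).

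**Figure D1:**
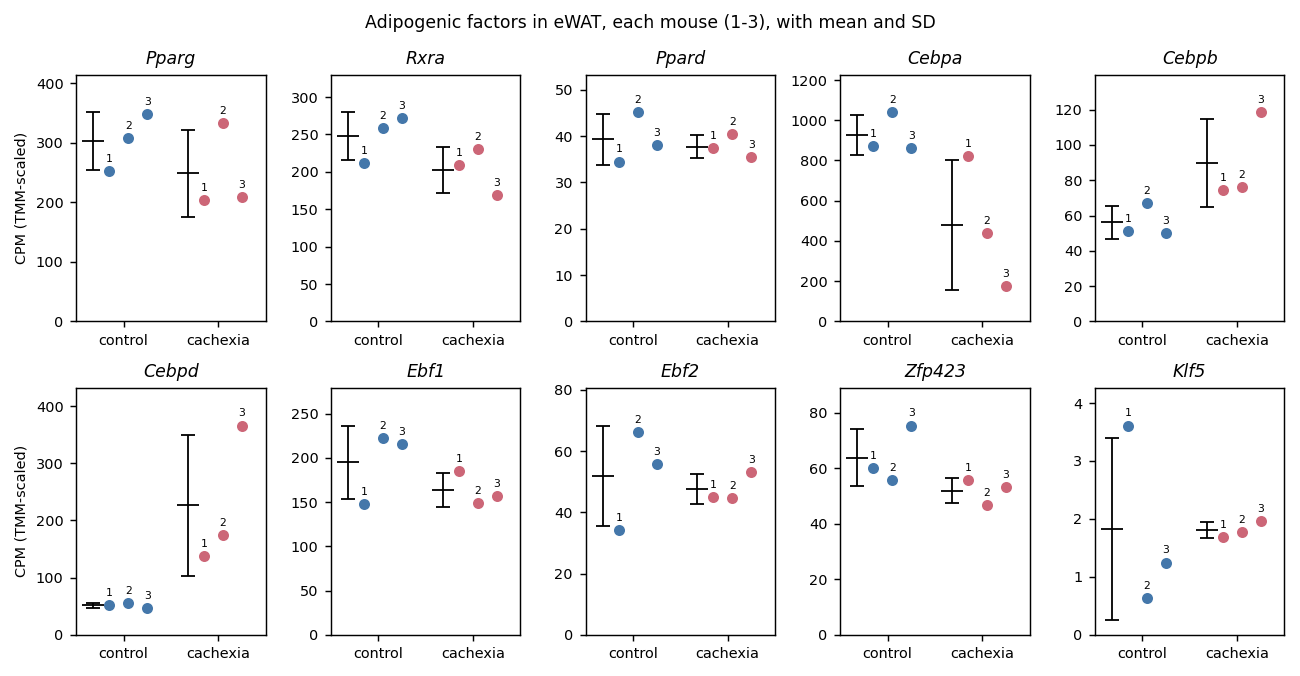
Expression of each factor in each mouse, in CPM on a linear axis from 0, with points numbered by replicate and the mean and SD of 3 mice drawn to their left. The groups of *Cebpa*, *Cebpb*, *Cebpd* and *Zfp423* did not overlap, and cachexia replicate 3 held both the lowest *Cebpa* (177.1 CPM) and the highest *Cebpd* (366.0 CPM).

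*Cebpd* encodes C/EBPδ, an early factor that is also induced in acute inflammation. Its single exon lies on chromosome 16 (15887286 to 15891031, + strand). It stood at 51.98, 55.65 and 47.31 CPM in control replicates 1, 2 and 3, and at 137.3, 175.0 and 366.0 CPM in cachexia replicates 1, 2 and 3. Every cachectic mouse was above every control mouse, but the cachectic mice differed widely from one another, from 2.66 to 7.09 times the control mean. The log2 fold change was 2.13 (SE 0.35, adjusted p = 0.0081), a 4.38-fold higher level with a 95% interval from 2.50 to 7.66 that is not adjusted for the number of genes. Without cachexia replicate 3 the log2 fold change was 1.60 (adjusted p = 0.0046), and without control replicate 1, the mouse that stood apart, it was 2.13 (adjusted p = 0.023).

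*Cebpb*, also of 1 exon, on chromosome 2 (167688915 to 167690418, + strand), encodes C/EBPβ, the partner of C/EBPδ in early adipogenesis. It was measured at 51.33, 67.06 and 50.03 CPM in control mice and at 74.65, 76.22 and 118.5 CPM in cachectic mice. The groups did not overlap, and the gap between the highest control and the lowest cachectic mouse was small. The log2 fold change of 0.68 (SE 0.21) missed the threshold with an adjusted p of 0.066, and DESeq2 called the gene higher (adjusted p = 0.028). Without cachexia replicate 3 it was 0.43 (adjusted p = 0.11), and without control replicate 3 it was 0.60 (adjusted p = 0.20). Its 1.60-fold difference had a 95% interval from 1.13 to 2.26.

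*Cebpa* encodes C/EBPα, which with PPARγ maintains the mature adipocyte, and lies on chromosome 7 (35119293 to 35121928, + strand). Control mice had 872.3, 1040 and 864.0 CPM. Cachectic mice had 822.9, 438.9 and 177.1 CPM. Cachexia replicate 1 was just under the lowest control mouse and replicate 3 was at 0.191 times the control mean, and the coefficient of variation was 67.7% in cachectic mice beside 10.8% in controls. The log2 fold change was -0.95 (SE 0.47, 95% interval -2.04 to 0.14) with an adjusted p of 0.20. Without cachexia replicate 1 it was -1.59 and passed the threshold (adjusted p = 0.049), and without cachexia replicate 3 it was -0.55 (adjusted p = 0.25).

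The counts of these genes could be affected in either direction by neighbors, since the sources used here do not say whether counting used strand. The shared bases given are overlaps of whole gene spans, introns included. On the opposite strand, *Spidr* shares 1808 bases with *Cebpd* and had 192 to 328 counts per mouse, beside 835 to 5583 for *Cebpd*. *Tmem189* shares 908 bases with *Cebpb* and had 594 to 1083 counts, of the same order as the 883 to 1807 of *Cebpb*. It was called lower (log2 fold change -0.56, adjusted p = 0.025) while *Cebpb* had a positive one. *Gm45091* overlaps *Cebpa* by 313 bases and had 32 to 128 counts, beside 2701 to 18152 for *Cebpa*.

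*Pparg*, on chromosome 6 (115360951 to 115490399, + strand), encodes PPARγ, the nuclear receptor without which fat cells do not form. Its level was 252.5, 309.1 and 348.5 CPM in control mice and 204.4, 333.1 and 209.9 CPM in cachectic mice. Cachexia replicates 1 and 3 were below all controls, and replicate 2 lay inside the control range. The log2 fold change was -0.28 (SE 0.23, adjusted p = 0.42), and the 95% interval of the fold, 0.567 to 1.19, spans 1. Without cachexia replicate 2 the log2 fold change was -0.55 (adjusted p = 0.098), and without cachexia replicate 1 it was -0.16 (adjusted p = 0.72).

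*Rxra*, which encodes a heterodimer partner of PPARγ, had 211.6, 259.0 and 272.5 CPM in control mice and 208.8, 229.9 and 168.6 CPM in cachectic mice. The groups overlapped, with a log2 fold change of -0.29 (SE 0.17, adjusted p = 0.28). *Ppard* was nearly level, at 34.52, 45.16 and 38.13 CPM in control mice and 37.33, 40.35 and 35.40 CPM in cachectic mice. Its interval was among the narrowest, with a fold of 0.960 between 0.767 and 1.20 (adjusted p = 0.81).

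*Zfp423*, a zinc finger factor that commits progenitors, stood at 60.21, 55.94 and 75.42 CPM in control mice and 55.76, 46.86 and 53.17 CPM in cachectic mice. The lowest control mouse was barely above the highest cachectic mouse, and the log2 fold change was -0.30 (SE 0.15, adjusted p = 0.20). *Ebf1* lay at 147.4, 222.2 and 215.9 CPM in control mice and at 185.2, 149.2 and 156.6 CPM in cachectic mice, which overlapped (log2 fold change -0.25, SE 0.19, adjusted p = 0.39). Its relative *Ebf2*, best known from brown fat precursors, had 34.12, 66.14 and 55.87 CPM in control mice and 45.02, 44.71 and 53.24 CPM in cachectic mice. All cachectic values of *Ebf2* lay inside the control range (log2 fold change -0.13, SE 0.23, adjusted p = 0.74).

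*Klf5*, a Krüppel-like factor of early adipogenesis, was barely measured, with 72, 11 and 22 counts in control mice and 29, 29 and 30 in cachectic mice. At 3.61, 0.631 and 1.25 CPM the control mice spread around the cachectic ones (1.69, 1.78 and 1.97 CPM). The 95% interval of its fold, 0.377 to 2.57, holds a 2-fold change in either direction (adjusted p = 0.98). The coefficient of variation was 86.0% in control mice and 7.75% in cachectic mice, and without control replicate 1 the log2 fold change was 0.94 (adjusted p = 0.21).

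**Figure D2:**
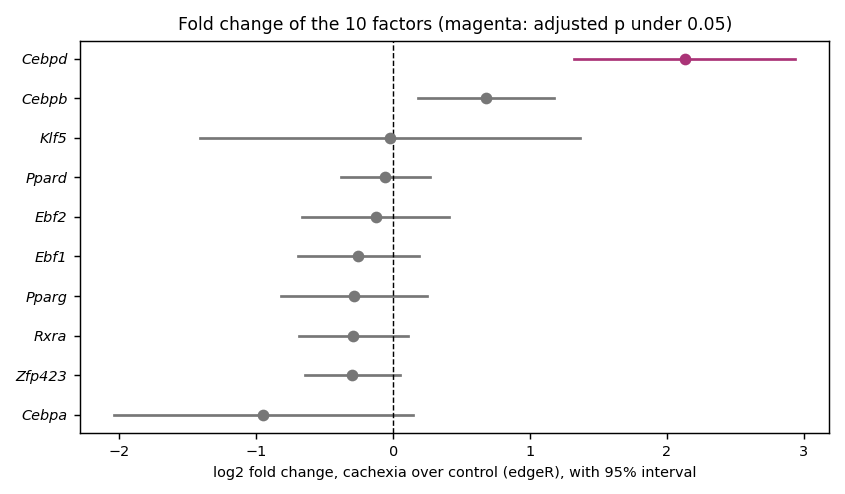
Log2 fold change of each factor, cachectic over control mice, from edgeR on 3 mice per group (points) with its unadjusted 95% interval (lines). *Cebpd* (2.13) is the one factor with an adjusted p under 0.05, and *Cebpb* (0.68) is the other one whose interval leaves out 0.

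Levels of different genes were compared per length, as the authors' FPKM (fragments scaled to exon length and to library depth). In control mice *Cebpa* led at 346.6 ± 36.5 FPKM (SD, n = 3), followed by *Pparg* at 101.4 ± 16.1, *Rxra* at 44.8 ± 5.72 and *Cebpb* at 36.9 ± 6.14 FPKM. The ranges of *Rxra* and *Cebpb* overlapped, so their order was not settled. *Ebf1* (19.8 ± 4.16 FPKM), *Cebpd* (13.6 ± 1.08 FPKM), *Zfp423* (11.2 ± 1.81 FPKM), *Ebf2* (7.41 ± 2.32 FPKM) and *Ppard* (5.16 ± 0.699 FPKM) came next, with overlaps between *Cebpd* and *Zfp423* and between *Ebf2* and *Ppard*, and *Klf5* was last at 0.348 ± 0.300 FPKM.

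In cachectic mice the ranges at the upper end of this order overlapped. *Cebpa* (178.0 ± 121.0 FPKM) overlapped *Pparg* (82.4 ± 23.9 FPKM), which overlapped *Cebpd* (58.9 ± 31.9 FPKM), which overlapped *Cebpb* (58.3 ± 16.1 FPKM), so these 4 could not be ordered beyond their spread. By its mean, *Cebpd* held rank 3, beside rank 6 in control mice. From *Rxra* (36.2 ± 5.57 FPKM, rank 5) down to *Klf5* no neighboring ranges overlapped.

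**Figure D3:**
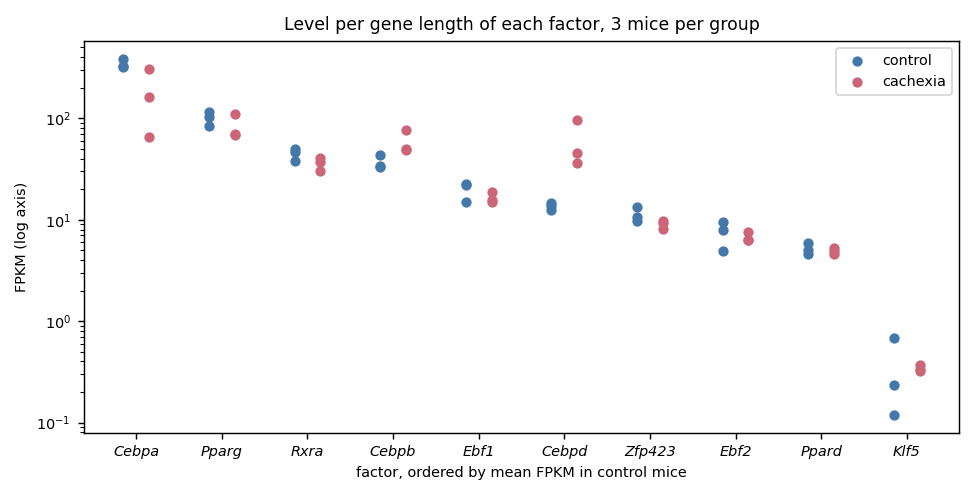
FPKM of each factor in each of 3 control and 3 cachectic mice on a log axis, ordered by the control mean. *Cebpa* was between 323.7 and 388.7 FPKM in control mice and spread from 65.5 to 306.1 FPKM in cachectic mice, where *Cebpd* reached 35.9 to 95.3 FPKM.

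The balance among the C/EBP genes was then compared within each mouse, which no scaling of libraries can change. The ratio of *Cebpd* to *Cebpa* FPKM was 0.0422, 0.0379 and 0.0388 in control mice and 0.118, 0.281 and 1.45 in cachectic mice. The groups did not overlap, and the mean log2 ratio was 3.20 higher in cachectic mice (-1.46 ± 1.84 against -4.66 ± 0.0819, SD, n = 3 each). The *Cebpb* to *Cebpa* ratio was 0.103, 0.113 and 0.102 in control mice and 0.159, 0.305 and 1.17 in cachectic mice, a mean log2 difference of 1.86. For both ratios the two-sided exact permutation p was 0.1, the smallest that 3 mice against 3 allow, and 0.25 after Benjamini-Hochberg adjustment over 5 ratios. The lack of overlap and this p followed from the single genes. *Cebpd* and *Cebpb* were higher and *Cebpa* lower in every cachectic mouse than in every control mouse, so the ratios are no separate evidence.

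The other ratios differed by less. The log2 ratio of *Ppard* to *Pparg* differed by 0.26 between the group means (exact permutation p = 0.3, 0.5 after adjustment), that of *Ebf2* to *Ebf1* by 0.16 (exact permutation p = 0.4, 0.5 after adjustment) and that of *Rxra* to *Pparg* by 0.015 (exact permutation p = 0.9). In all 3 the groups overlapped.

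As a share of the summed FPKM of the 3 C/EBP genes, a summary chosen after the values were seen, *Cebpa* held 87.3%, 86.9% and 87.7% in control mice and 78.4%, 63.1% and 27.6% in cachectic mice. *Cebpd* held 3.66%, 3.27% and 3.38% in control mice and 9.20%, 17.7% and 40.1% in cachectic mice. In cachexia replicate 3 *Cebpd* was thus the most abundant of the 3, ahead of *Cebpb* at 32.3%.

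**Figure D4:**
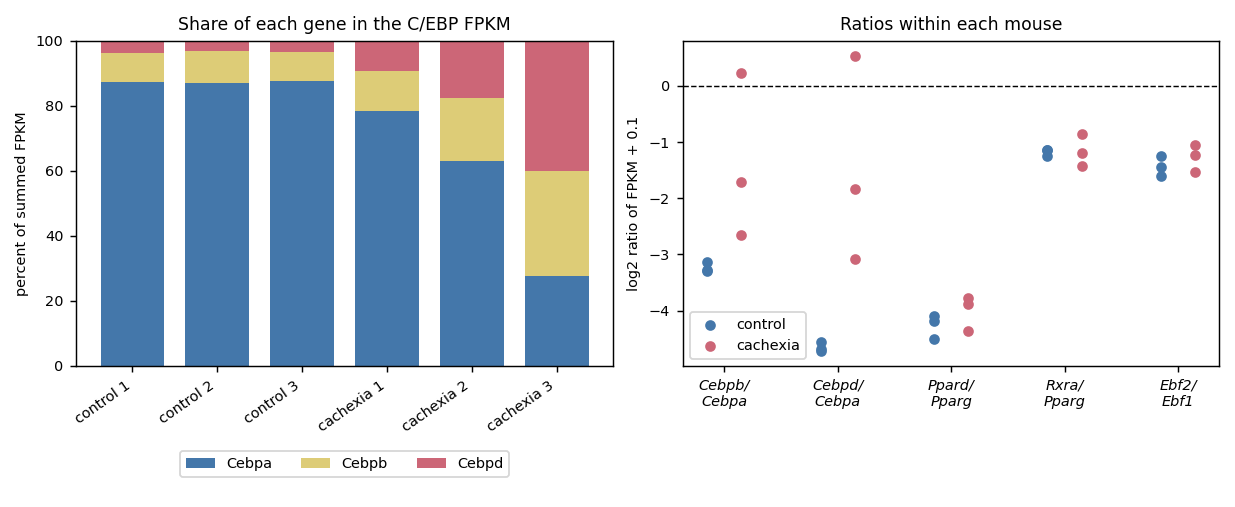
Left, percent of the summed FPKM of *Cebpa*, *Cebpb* and *Cebpd* held by each gene in each mouse. Right, the 5 log2 ratios of FPKM (pseudocount 0.1) in each mouse, with the control mice of *Cebpd*/*Cebpa* between -4.72 and -4.57 and the cachectic mice between -3.09 and 0.54.

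Markers of other cells moved with the groups. All 5 erythroid markers were called higher (summed 252.1 to 450.5 CPM in control mice, 1331 to 2850 CPM in cachectic mice), as were 8 of 9 neutrophil markers (11.99 to 15.53 against 208.9 to 783.8 CPM) and 5 of 8 endothelial markers (1549 to 1592 against 2255 to 3175 CPM). The higher calls made up 100%, 88.9% and 62.5% of these lists, beside 9.0% of all tested genes. DESeq2 called 5 erythroid, 6 neutrophil and 7 endothelial markers higher, beside 12.3% of all genes. With limma-voom the counts were 5, 6 and 5, beside 8.59%. Of these lists, only the neutrophil marker *Ngp* was at 0 counts in a library, a control. The neutrophil markers summed to 234.4, 208.9 and 783.8 CPM in cachexia replicates 1, 2 and 3, so the highest sum was in replicate 3, the mouse with the highest *Cebpd* and *Cebpb*. The markers differed in this. *S100a9* was at 101.9, 79.1 and 339.8 CPM in these mice and *Cxcr2* was nearly level (10.38, 11.05 and 11.15 CPM). *Csf3r* was lowest in replicate 3 (30.5, 27.58 and 12.33 CPM). The erythroid sum was highest in replicate 1 and the endothelial one in replicate 2. Their part in the *Cebpd* and *Cebpb* values was not tested. In bulk tissue, fewer cells of a type and less RNA per cell cannot be told apart.

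The identity of the tissue was checked against its own markers. None of the 8 adipocyte markers was at 0 in any mouse, and they summed to 31590 to 46870 CPM in control mice and 24260 to 43580 CPM in cachectic mice. Of the 8, 5 are also in the list of adipocyte targets described further on. By edgeR, 1 of the 8 was called higher (*Cidec*, 12.5%) and 0 lower, beside 9.0% and 8.63% of all tested genes. Both an unadjusted p under 0.05 and DESeq2 gave 1 higher and 2 lower. The adipokine gene *Adipoq* was at 1612, 2066 and 2019 CPM in control mice and 4175, 1656 and 2454 CPM in cachectic mice (log2 fold change 0.54, adjusted p = 0.30), while the lipid droplet gene *Plin1* was at 1492, 2328 and 2401 CPM against 1281, 633.6 and 385.0 CPM (log2 fold change -1.44, adjusted p = 0.057). Of the 8 adipocyte markers, 3 (*Plin1* among them) had their lowest cachectic value in replicate 3, the mouse with the least *Cebpa*, and 5 in replicate 2. Among 8 fat progenitor markers, *Ly6a* was called higher (log2 fold change 0.97, adjusted p = 0.0094) and *Pi16* lower (log2 fold change -1.72, adjusted p = 0.026). Each is 12.5% of that list, beside the same 9.0% and 8.63% of all tested genes. *Ly6a* was not called without control replicate 3 (adjusted p = 0.056), and *Pi16* was called in 1 of the 6 fits with 1 mouse left out. *Pdgfra*, a receptor of fat progenitors, was at 127.5, 146.4 and 116.0 CPM in control mice and 104.6, 66.57 and 60.71 CPM in cachectic mice (log2 fold change -0.75, adjusted p = 0.052). Of the mesothelial and lymphocyte lists (6 genes each) 0 genes were called either way by edgeR, by DESeq2 or by limma-voom, with 1 and 2 genes lower at an unadjusted p under 0.05. Of 9 macrophage markers 1 was higher and 1 lower (11.1% each, beside 9.0% and 8.63% of all tested genes). The 5 epididymal epithelium genes had too few counts to be tested.

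Of 9 tested paralogs of the factors, 1 was called higher and 1 lower, both of them RXR genes. Each call is 11.1% of the list, near the 9.0% higher and 8.63% lower of all tested genes. *Rxrb*, the broadly expressed RXR, was at 38.48, 35.19 and 32.52 CPM in control mice and 65.14, 63.44 and 53.76 CPM in cachectic mice (log2 fold change 0.78, SE 0.13, adjusted p = 0.0088). *Rxrg*, a more restricted RXR, was at 16.51, 20.23 and 20.40 CPM in control mice and 11.96, 8.84 and 4.20 CPM in cachectic mice (log2 fold change -1.19, SE 0.34, adjusted p = 0.049). *Rxrb* missed the threshold without control replicate 3 (adjusted p = 0.056), and *Rxrg* missed it without control replicate 1, 2 or 3 or cachexia replicate 2 (adjusted p up to 0.14). Neither pair of groups overlapped, and the 2 genes lay on either side of *Rxra* (-0.29).

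The other paralogs did not pass. *Ppara*, the receptor of hepatic fatty acid oxidation, was the most variable, with 26.53 CPM in cachexia replicate 2 and 1.57 to 7.68 CPM in the other mice (log2 fold change 0.88, adjusted p = 0.49). The log2 fold changes of *Zfp521*, a ZFP423 antagonist (0.49), *Klf4* (0.35), *Cebpg* (0.21), *Ebf4* (0.18), *Ebf3* (0.17) and *Klf6* (0.16) were all above 0, with adjusted p from 0.27 to 0.83. *Cebpe* had too few counts to be tested.

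Among 21 regulators that promote adipogenesis or adipocyte gene expression, edgeR called 0 higher and 3 lower (14.3%), beside 9.0% and 8.63% of all tested genes. Their median log2 fold change was 0.12, beside -0.0031 for all tested genes. At an unadjusted p under 0.05 there were 4 higher and 4 lower (17.4% and 17.0% of all tested genes), and DESeq2 called 3 and 4 (12.3% and 12.1% of all genes). The lower count was 0 without control replicate 3 and 1 without control replicate 2, and 1 was higher without cachexia replicate 1. Calls fell over all genes too. Without control replicate 3, 446 genes were called lower, and without control replicate 2, 712, beside 1381 with all mice. Without cachexia replicate 1, 1035 genes were called higher, beside 1440. The 3 called lower with all mice were *Srebf1*, the lipogenic sterol-response factor, *Zfp467*, a zinc finger that favors fat over bone, and *Egr2* (Krox20), which acts upstream of *Cebpb*. *Srebf1* was at 513.8, 579.0 and 602.0 CPM in control mice and 143.5, 263.9 and 83.79 CPM in cachectic mice (log2 fold change -1.79, adjusted p = 0.019). *Zfp467* fell by 1.15 on the log2 scale (adjusted p = 0.010) and *Egr2*, at 5.82 to 11.23 CPM in control mice, fell by 2.85 (adjusted p = 0.029). Without control replicate 3 all 3 missed the threshold (adjusted p = 0.050 for *Zfp467*, the highest over the mice left out, and up to 0.068 for *Srebf1* and 0.095 for *Egr2*), as did *Srebf1* and *Egr2* without control replicate 2 or cachexia replicate 1, and *Egr2* without cachexia replicate 2.

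Of 21 inhibitors of adipogenesis, edgeR called 0 higher and 4 lower (19.0%), beside 9.0% and 8.63% of all tested genes. Their median log2 fold change was -0.064, beside -0.0031 for all tested genes. At an unadjusted p under 0.05 there were 1 higher and 5 lower (17.4% and 17.0% of all tested genes), and DESeq2 called 0 and 5 (12.3% and 12.1% of all genes). The lower count was 1 without control replicate 3 and 2 without control replicate 2 or without cachexia replicate 2, and 1 was higher without cachexia replicate 3. Over all genes, the lower calls in these fits were 446, 712 and 930, beside 1381 with all mice. Without cachexia replicate 3, 1197 genes were called higher, beside 1440. *Bhlhe40*, a transcriptional repressor, was at 64.32, 50.55 and 46.86 CPM in control mice and 22.40, 19.65 and 17.96 CPM in cachectic mice (log2 fold change -1.43, SE 0.16, adjusted p = 0.0027). *Dlk1* (Pref-1), a marker of the undifferentiated preadipocyte, was low throughout and fell by 2.33 (adjusted p = 0.018). *Ddit3*, which encodes CHOP, a C/EBP family member that blocks C/EBPβ from DNA, fell by 0.67 (adjusted p = 0.019), and the fourth was *Twist1* (log2 fold change -0.62, adjusted p = 0.036). *Bhlhe40* was called with any 1 mouse left out, *Dlk1* in 4, *Ddit3* in 3 and *Twist1* in 1 of the 6 such fits.

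A list of adipocyte genes, chosen by name as targets of PPARγ and C/EBPα, split in direction. Whether these factors drove the listed genes in this tissue was not tested. Of 33 listed, 32 were tested (*Ucp1* had too few counts), and 7 were called higher (21.9%, beside 9.0% of all tested genes) and 7 lower (21.9%, beside 8.63%), with a median log2 fold change of -0.087. The count of higher genes was 3 without control replicate 3, 4 without control replicate 2 and 4 without cachexia replicate 1. Over all genes, the higher calls in these fits were 382, 600 and 1035, beside 1440 with all mice. DESeq2 called 8 targets higher and 11 lower, beside 12.3% and 12.1% of all genes. At an unadjusted p under 0.05 there were also 8 higher and 11 lower, beside 17.4% and 17.0%.

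The 3 higher genes with the smallest p were *Slc27a1*, a fatty acid transporter, *Pdk4*, a kinase that shuts off pyruvate oxidation, and *Insr*, the insulin receptor. *Slc27a1* was at 300.4, 315.6 and 347.3 CPM in control mice and 2193, 1906 and 2036 CPM in cachectic mice (log2 fold change 2.67, SE 0.19, adjusted p = 0.00088). *Pdk4* rose from 34.02, 44.93 and 42.44 CPM to 197.0, 810.1 and 585.3 CPM (log2 fold change 3.71, adjusted p = 0.0038), and *Insr* had a log2 fold change of 1.19 (adjusted p = 0.0087). These 3 were called with any 1 mouse left out. The other 4 were *Pck1*, *Pnpla2*, *Angptl4* and *Cidec*, of which *Cidec* was called in 0 of the 6 such edgeR fits (adjusted p = 0.050 to 0.11).

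The 3 lower genes with the smallest p were lipid synthesis genes. *Dgat2*, which adds the last acyl chain of a triglyceride, was at 2091, 2839 and 2882 CPM in control mice and 201.7, 224.0 and 63.66 CPM in cachectic mice (log2 fold change -4.00, SE 0.48, adjusted p = 0.0031). *Fasn*, the fatty acid synthase, was at 3872, 14710 and 10540 CPM in control mice and 461.3, 718.9 and 260.7 CPM in cachectic mice (log2 fold change -4.34, adjusted p = 0.0048). *Agpat2*, an acyltransferase of the same pathway, fell by 1.99 (adjusted p = 0.0090), and the others were *Scd1*, *Me1*, *Gpd1* and *Lep*. Of the 7 lower targets, 4 had their lowest cachectic value in replicate 3, the mouse with the least *Cebpa*, 2 in replicate 1 and 1 in replicate 2. Of all 32 tested targets, 5 had theirs in replicate 1, 14 in replicate 2 and 13 in replicate 3.

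**Figure D5:**
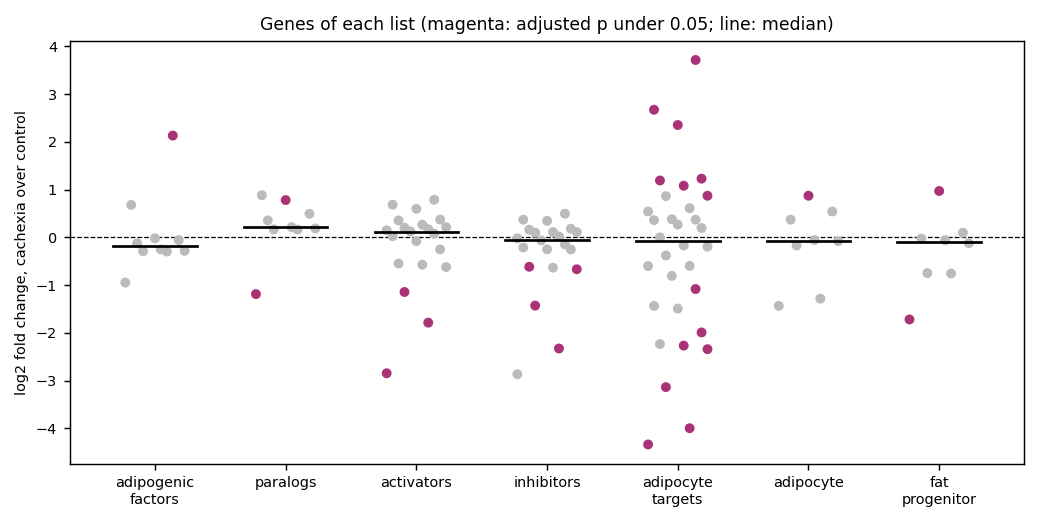
Log2 fold change, cachectic over control mice, of every tested gene of 7 lists, with genes at an adjusted p under 0.05 in magenta and the median of each list as a line. Medians lay between -0.19 (the factors) and 0.21 (their paralogs), while the adipocyte targets spread from -4.34 to 3.71.

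The protein-coding genes whose profile over the 6 mice was most like that of *Pparg*, by the root mean square difference of centered log2 CPM, were *Psme4* (0.068), *Ncoa6* (0.072) and *Cep295* (0.073). Chosen for this likeness, all 3 were, as *Pparg* was, in the control range in cachexia replicate 2 and below it in replicates 1 and 3. For *Cebpa* they were *Cd209d* (0.11), *Hic1* (0.12) and *Pigz* (0.17), of which *Pigz* was low throughout (0.131 to 2.66 CPM). *Hic1* was at 41.14, 43.04 and 41.76 CPM in control mice and 37.79, 17.93 and 8.79 CPM in cachectic mice, with log2 fold changes of -0.96 for *Hic1* (adjusted p = 0.16) and -0.95 for *Cebpa*. With 6 mice in 2 groups, such likeness rests on few independent values, and the shared patterns follow from how these genes were picked.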

How the data were processed

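RNA-seq of eWAT from 3 control and 3 cachectic mice was analyzed. The authors filtered the reads for adapters and quality, aligned them with Hisat2, counted them per gene with featureCounts 1.5.0-p3 and deposited raw counts. The deposited FPKM values, made by the authors from count and gene length, carry an extra factor of 0.932 to 1.06 per sample. The deposited table of the authors' own fold changes and p-values was not used. The submitters' processing notes name mm9, but 98.3% of the gene identifiers shared with GENCODE M21 have its GRCm38 coordinates, so the deposited coordinates are given as GRCm38.

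Counts were filtered (filterByExpr), scaled by TMM and tested in R 4.3.3 with edgeR 4.0.16 without covariates. The SE is the log2 fold change divided by the square root of F, and ratios were tested by exact permutation. DESeq2 1.42.0, limma 3.58.1, other scalings and filters, a replicate block and leaving out each mouse were alternatives, those for the paralog, activator, inhibitor and marker lists chosen after seeing the data. On simulated counts (15772 genes, 200 of them changed, log2 fold change 2), edgeR recovered 93% with 4.12% of its calls false, and DESeq2 88.5% with 7.33% false. Every simulated gene had the same dispersion, so these rates need not hold for the real genes or for smaller changes. The members, lists and tests were chosen with earlier results of these data known. Besides the factors, the genes named are the tested paralogs, the 3 smallest p-values per direction among called genes of each list, *Adipoq*, *Plin1*, *Pdgfra* and the 3 most alike genes. Other names, including overlapping genes and the remaining called targets, were added after their values were seen. No 2 libraries had near-identical counts. The biological coefficient of variation was 0.264.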

Additional observations from a re-analysis of the deposited data

How the results depend on the processing

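*Cebpd* stayed higher and past the threshold under all 15 alternatives, with log2 fold changes from 1.60 to 2.39 and adjusted p from 1.7e-08 to 0.045. DESeq2 called 2 of the factors higher (*Cebpd* and *Cebpb*), and leaving out cachexia replicate 1 gave 1 lower factor (*Cebpa*). With 1 mouse left out in turn, 1 factor was called higher each time and 0 to 1 lower. The adipocyte targets called higher then numbered 3 to 7 and lower 5 to 7, while DESeq2 called 8 targets higher and 11 lower. Among the lists whose alternatives were chosen after seeing the data, leaving out 1 mouse gave 0 to 2 paralogs higher and 0 to 1 lower, 0 to 1 activators higher and 0 to 3 lower, and 0 to 1 inhibitors higher and 1 to 3 lower, DESeq2 called 3 activators higher, and the replicate block called 0 paralogs lower and 1 activator higher. *Pparg*, *Cebpa*, *Cebpb*, *Ebf1*, *Zfp423* and *Rxra* kept their direction throughout, and with 1 mouse left out they ranged from -0.55 to -0.16, -1.59 to -0.55, 0.43 to 0.82, -0.42 to -0.15, -0.39 to -0.17 and -0.39 to -0.17. *Ppard* (0.053) and *Ebf2* (0.082) turned positive without control replicate 2, and over all mice left out in turn they ranged from -0.14 to 0.053 and from -0.36 to 0.082. *Klf5* turned positive without control replicate 1 (0.94), without cachexia replicate 1 (0.028; range over mice left out -0.43 to 0.94), in limma-voom (0.30), on log2(FPKM + 1) (0.015), on log2(FPKM + 0.1) (0.18) and with the replicate block (0.30). The *Rxra* to *Pparg* difference turned to -0.018 when control replicate 3 was left out and to -0.14 when cachexia replicate 1 was. The cause of these changes was not tested. For the ratios, leaving out 1 mouse gave differences of 2.20 to 4.01 for *Cebpd*/*Cebpa* and 1.06 to 2.49 for *Cebpb*/*Cebpa*, 0.14 to 0.44 for *Ppard*/*Pparg*, 0.047 to 0.29 for *Ebf2*/*Ebf1* and -0.14 to 0.15 for *Rxra*/*Pparg*.

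Replicate numbers belong to different mice, and same-numbered samples did not deviate together (correlations -0.0031, -0.011 and 0.0085). With the replicate block, *Cebpd* had a log2 fold change of 1.99 (adjusted p = 0.019) and *Cebpa* of -1.21 (adjusted p = 0.12), 1 factor was higher and 0 were lower, and 5 targets were higher and 8 lower. The genes not called with the block included *Rxrg* (adjusted p = 0.068), *Egr2* (0.054), *Twist1* (0.069) and *Cidec* (0.094). The block called 913 genes higher and 968 lower of all tested, beside 1440 and 1381, and leaving out 1 mouse gave 382 to 1197 and 446 to 1142. P-values cover the spread between 3 mice a group, and *Klf5* had 11 to 72 counts.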
